A study of Mus musculus with 6 samples.

Results

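The genes described here are 10 transcripts of iron regulation and storage, heme breakdown and metal binding, chosen by symbol from the 24411 genes of the deposited tables: the hepcidin genes Hamp and Hamp2 and their inducer Bmp6, the transferrin gene Trf and its receptor gene Tfrc, the ferritin subunit genes Fth1 and Ftl1, the heme oxygenase gene Hmox1, and the metallothionein genes Mt1 and Mt2. They were measured by bulk RNA sequencing of whole liver in 3 Cyr61 KO and 3 Control libraries. Both groups were male mice aged 24 weeks, kept for 12 weeks on a diet labelled NASH (non-alcoholic steatohepatitis), and the strain of both is given as Cyr61fl/fl, a floxed allele of the gene for the secreted matrix protein CYR61. The labels do not say in which cells or by what means the allele was removed, nor whether each library came from its own mouse, so each p-value reflects only how far these libraries vary, which may be technical.

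The liver sets the iron supply of the whole body. Hepatocytes secrete hepcidin, a peptide that makes cells degrade the iron exporter ferroportin, and they raise its transcription when BMP6 from sinusoidal endothelial cells signals through SMAD proteins or when interleukin 6 signals through STAT3. Transferrin carries iron in plasma, the transferrin receptor takes it into cells, ferritin stores it, and heme oxygenase frees it from heme. Metallothioneins are small cysteine-rich proteins that bind zinc and copper, and their genes are induced by metals, glucocorticoids and inflammation.

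Each library held 21032878 to 40377742 counts in genes. Cyr61 was at 3.77, 2.66 and 3.14 CPM (read counts scaled to library size with TMM factors) in Cyr61 KO replicates 1, 2 and 3, against 15.6, 32.4 and 27.8 CPM in Control replicates 1, 2 and 3, the order in which 3 values of a group are given throughout, a log2 fold change of -2.98 (SE 0.32, edgeR adjusted p = 0.0103, and 0.0615 without Cyr61 KO replicate 1). Control replicate 2 stood apart: 50.9% of its reads fell in genes, against 82.8% to 87.6% in the others. In it 25.7% of reads lay outside genes and 19.4% mapped to several places, against at most 7.14% and 5.73% in the others. The transcript Malat1 was at 3738 CPM in it, against 56.5 to 128 CPM in the others. Why this library differed was not tested. Its 8 hepatocyte markers summed to 45950 CPM, against 97905 to 140562 CPM in the others. Its pancreas and gut markers, at 1173 CPM against 10.7 to 14.4 CPM, were almost all Dmbt1. Its 6 cholangiocyte markers were raised too, at 1365 CPM against 80.5 to 271 CPM, of which Spp1 made up 1113 CPM. Krt19 was at 88.6 CPM in this library, against 3.78 to 11.9 CPM in the others. The albumin gene Alb was at 23799 to 90103 CPM, and all 8 hepatocyte markers were detected.

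Of the 10 genes, all passed the filter on low counts, 3 were called lower in Cyr61 KO livers and 0 higher (edgeR quasi-likelihood test, adjusted p below 0.05). Among all 13563 genes tested, 3.44% were called, 1.07% higher and 2.37% lower. Before adjustment, p was under 0.05 for 4 of the 10 genes and for 27.4% of all genes. The 3 called genes were Mt1, Mt2 and Hmox1. The groups did not overlap for these 3 and for Hamp, 4 of the 10, and they did not overlap for 35.2% of all genes tested. The median log2 fold change of Cyr61 KO over Control was -0.17 for the 10 genes and -0.03 for all genes.

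**Figure D1:**
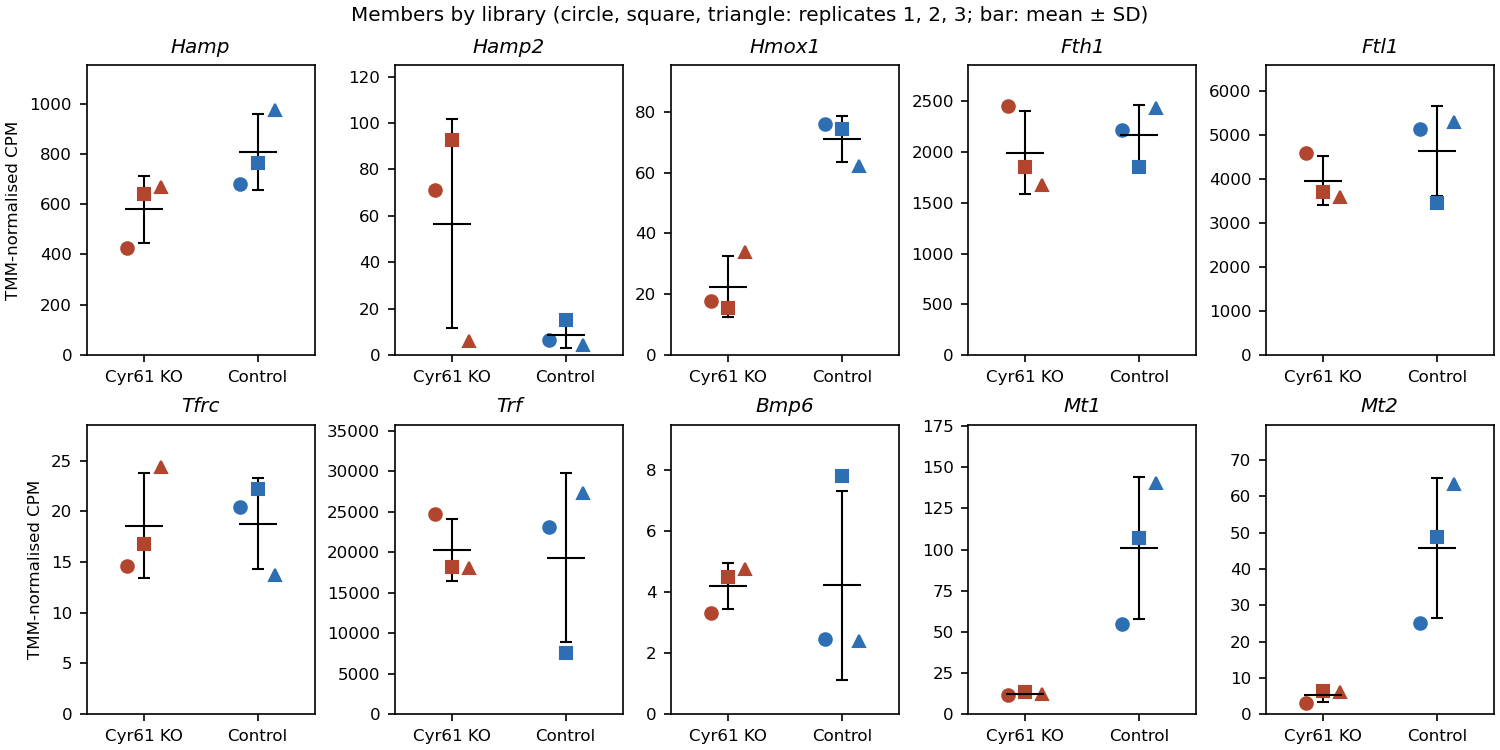
TMM-normalised CPM (y axis, linear, from 0) of the 10 genes in each library, with Cyr61 KO libraries left of Control libraries; markers show replicates and the bars show mean ± SD of 3 libraries. Mt1, Mt2, Hmox1 and Hamp do not overlap between the groups, and Hamp2 is high in 2 Cyr61 KO libraries, at 71.2 and 92.4 CPM, and at 5.89 CPM in the other.

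The metallothionein genes Mt1 and Mt2 were about 8-fold lower in Cyr61 KO livers, a larger difference than that of Hmox1, the other gene called. Mt1 (chromosome 8 from 94179082 to 94180327, plus strand, GRCm38) was at 11.7, 13.2 and 12.0 CPM in the Cyr61 KO livers, against 55.0, 107 and 141 CPM in the Control livers. The Cyr61 KO libraries lay close together and every one of them was below every Control library, while the Control libraries spread over a wide range. The means were 12.3 ± 0.779 CPM in Cyr61 KO and 100.8 ± 43.1 CPM in Control (SD, n = 3 each), so the Cyr61 KO mean was 12.2% of the Control mean. Mt1 fell by 3.03 on the log2 scale (SE 0.34, edgeR adjusted p = 0.0107).

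Mt2 lies beside Mt1 on the same strand, from 94172664 to 94173568, with 5513 bases between the annotated genes. It was at 3.12, 6.39 and 6.22 CPM in the Cyr61 KO livers, against 25.2, 48.8 and 63.4 CPM in the Control livers. Again no library of one group reached the other, and Control replicate 1 was the lowest Control for both genes and replicate 3 the highest. The means were 5.24 ± 1.84 CPM in Cyr61 KO and 45.8 ± 19.3 CPM in Control (SD, n = 3 each). Mt2 fell by 3.13 on the log2 scale (SE 0.41, edgeR adjusted p = 0.0146).

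Mt1 and Mt2 kept a near constant proportion in 5 of the 6 libraries. Mt2 counts were 48.4% and 51.9% of Mt1 counts in Cyr61 KO replicates 2 and 3, against 45.9%, 45.7% and 45.1% in the 3 Control libraries. Cyr61 KO replicate 1 was the exception at 26.6%, from 105 Mt2 and 395 Mt1 counts. The log2 ratio averaged -1.30 ± 0.53 in Cyr61 KO and -1.13 ± 0.01 in Control (SD, n = 3 each), a difference of -0.17 that turned to 0.14 without Cyr61 KO replicate 1. An exact two-sided permutation test over the 6 libraries gave p = 1, where the smallest p that 3 against 3 can give is 0.1 (3 ratios were tested in all, adjusted p = 1).

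The metal-responsive element, whose core is bound by the transcription factor MTF1, is the known control sequence of metallothionein genes, so its letters in the RefSeq promoter windows of Mt1 and Mt2 (GRCm38.p6, a fixed span around the annotated start) are shown for the pair. The cores TGCACNC and TGCGCNC, searched on both strands, were found at 4 places in the Mt2 window and at 3 in the Mt1 window. Counted from the start used, they began at -223, -128, -50 and 5 in Mt2 and at -23, 3 and 21 in Mt1. Positions above 0 lie inside the transcript by that start, and the number of places depends on the start used. Of 32851 promoter windows of the same length 25.7% held at least 1 such core and 7.11% at least 2. Such cores were also found in a window of Tfrc, at -53 and -50, and in that of Bmp6, at -124. Each stretch of 30 bases is written on the plus strand, 5′ to 3′, with the core in capitals. A core on the minus strand appears as its reverse complement, GTGTGCA or GTGCGCA.
Mt2, chr8:94172383-94172412: cagcatcgcctcTGCACCCggcccctcggg
Mt2, chr8:94172478-94172507: tcgcagacccttTGCGCTCagctcctttgc
Mt2, chr8:94172556-94172585: tggggggagggcGTGTGCAggctctgtccc
Mt2, chr8:94172610-94172639: agaattcgggtcGTGCGCAggcccaggggc
Mt1, chr8:94179054-94179083: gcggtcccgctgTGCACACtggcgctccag
Mt1, chr8:94179079-94179108: tccagggagctcTGCACTCcgcccgaaaag
Mt1, chr8:94179097-94179126: ccgcccgaaaagTGCGCTCggctctgccaa
These are matches of letters and say nothing of whether MTF1 was bound. The transcript of Mtf1 itself did not pass, at 24.6 ± 3.05 CPM in Cyr61 KO and 19.6 ± 2.62 CPM in Control (SD, n = 3 each), without overlap (log2 fold change 0.33, edgeR adjusted p = 0.312).

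Bulk RNA cannot tell fewer cells of a type from less RNA per cell. The 8 hepatocyte markers summed to 112192 to 140562 CPM in Cyr61 KO and 45950 to 109190 CPM in Control, with 1 called higher and 0 lower. The lowest Control sum was that of Control replicate 2. The part of hepatocyte content in the Mt1 and Mt2 values was not tested. Without Cyr61 KO replicate 1 neither metallothionein gene passed (edgeR adjusted p = 0.0615 for each), in a fit that called 0.0502% of all genes, and without replicate 2 Mt2 missed the threshold (0.0588) while Mt1 passed (0.0462). Mt1 was between -3.29 and -2.70 and Mt2 between -3.39 and -2.80 on the log2 scale with any 1 library left out. Without Control replicate 2 they were at -2.96 and -3.05 and both passed (edgeR adjusted p = 0.0228 and 0.0313).

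**Figure D2:**
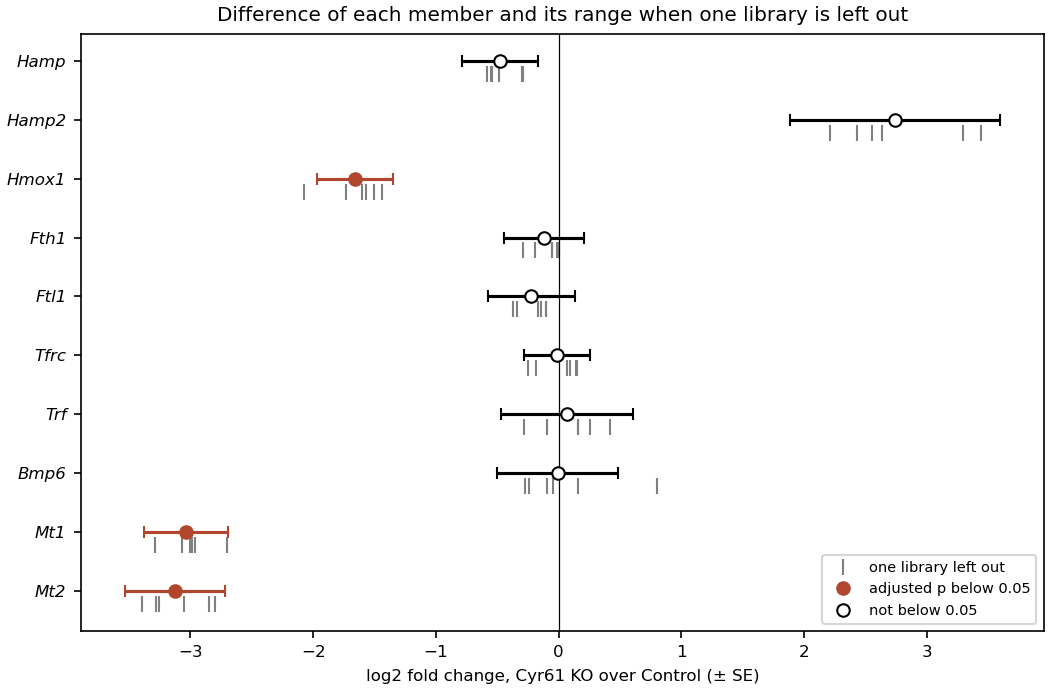
Log2 fold change of Cyr61 KO over Control (x axis) with its standard error for the 10 genes, filled where the edgeR adjusted p was below 0.05; grey ticks give the value with each library left out in turn. Mt1, Mt2 and Hmox1 stay below 0 with any library left out, Hamp2 stays above 0 between 2.21 and 3.44, and Fth1, Tfrc, Trf and Bmp6 have values on both sides of 0.

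Hmox1, the inducible heme oxygenase that splits heme into biliverdin, carbon monoxide and iron, was about 3-fold lower in Cyr61 KO livers. Its locus is chromosome 8, 75093621 to 75100589, plus strand. It was at 17.7, 15.6 and 34.0 CPM in the Cyr61 KO livers, against 76.2, 74.5 and 62.3 CPM in the Control livers. Cyr61 KO replicate 3 was well above the other 2 knockouts and still below every Control library. The means were 22.5 ± 10.1 CPM in Cyr61 KO and 71.0 ± 7.54 CPM in Control (SD, n = 3 each), and Hmox1 fell by 1.66 on the log2 scale (SE 0.31, edgeR adjusted p = 0.0334).

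Hmox1 is transcribed in macrophages that take up red cells as well as in stressed hepatocytes. Markers of monocyte-derived macrophages moved in the same direction: 5 of 9 were called lower and none was at 0. Their sum was 222, 165 and 422 CPM in Cyr61 KO replicates 1, 2 and 3. In Control replicates 1, 2 and 3 it was 1070, 2109 and 756 CPM. Spp1, which is also among the cholangiocyte markers, made up 1113 of the 2109 CPM in Control replicate 2. Of 8 markers of resident Kupffer cells edgeR called 0, and their sum was 536 to 977 CPM in Cyr61 KO and 570 to 906 CPM in Control. C6 was a large part of that sum, at 402, 346 and 430 CPM in Cyr61 KO, against 370, 176 and 399 CPM in Control. Single markers went opposite ways. Timd4 was at 5.44, 3.62 and 9.17 CPM in Cyr61 KO, against 2.05, 2.03 and 2.01 CPM in Control. Cd5l was at 136, 82.7 and 264 CPM, against 333, 239 and 257 CPM, with overlap. The sum thus does not show whether the content of these cells differed. The part of the macrophage markers in the Hmox1 difference was not tested. The call was lost without Cyr61 KO replicate 1 or 2 (edgeR adjusted p = 0.0947 and 0.138), without Control replicate 1 or 2 (0.0628 and 0.0608) and when only library totals were used for scaling (0.0717), at log2 fold changes between -1.92 and -1.44.

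The hepcidin genes Hamp and Hamp2 had fold changes of opposite sign, and neither passed. Hamp encodes hepcidin, and Hamp2 is a copy found in mice whose product, in transgenic mice, did not lower iron as hepcidin does. Both lie on chromosome 7 on the minus strand, Hamp from 30942368 to 30944032 and Hamp2 from 30922372 to 30924681, with 17686 bases between them. Hamp was at 426, 642 and 669 CPM in the Cyr61 KO livers, against 682, 762 and 974 CPM in the Control livers. The highest Cyr61 KO library was just below the lowest Control library. The means were 579 ± 133 CPM in Cyr61 KO and 806 ± 151 CPM in Control (SD, n = 3 each), and the log2 fold change of -0.48 (SE 0.31) did not pass (edgeR adjusted p = 0.339).

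Hamp2 was at 71.2, 92.4 and 5.89 CPM in the Cyr61 KO livers, against 6.43, 14.9 and 4.12 CPM in the Control livers. Cyr61 KO replicates 1 and 2 were above every Control library, while replicate 3 lay within the Control range. The log2 fold change of 2.74 (SE 0.86) did not pass (edgeR adjusted p = 0.0938). Leaving out Cyr61 KO replicate 3 gave 3.29, which passed (0.0120). It was 2.80 and passed when no filter on low counts was used (0.0442), and 3.15 and passed with limma voom and quality weights (0.0147).

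Within a library, Hamp2 counts were 16.7%, 14.4% and 0.880% of Hamp counts in Cyr61 KO replicates 1, 2 and 3, against 0.944%, 1.95% and 0.422% in Control replicates 1, 2 and 3. The proportion was thus higher in Cyr61 KO replicates 1 and 2 than anywhere else and at the Control level in replicate 3. The difference of the mean log2 ratio was 2.70 (exact two-sided permutation p = 0.3, adjusted over 3 ratios 0.75). It was 4.08 without Cyr61 KO replicate 3 and 1.95 without replicate 1. The annotated transcripts of Hamp and Hamp2 share 16.6% and 11.2% of their stretches of 50 bases and 0% of those of 100 bases, so short reads from shared stretches could not be assigned to one gene. The read length is not given in the sources used here.

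**Figure D3:**
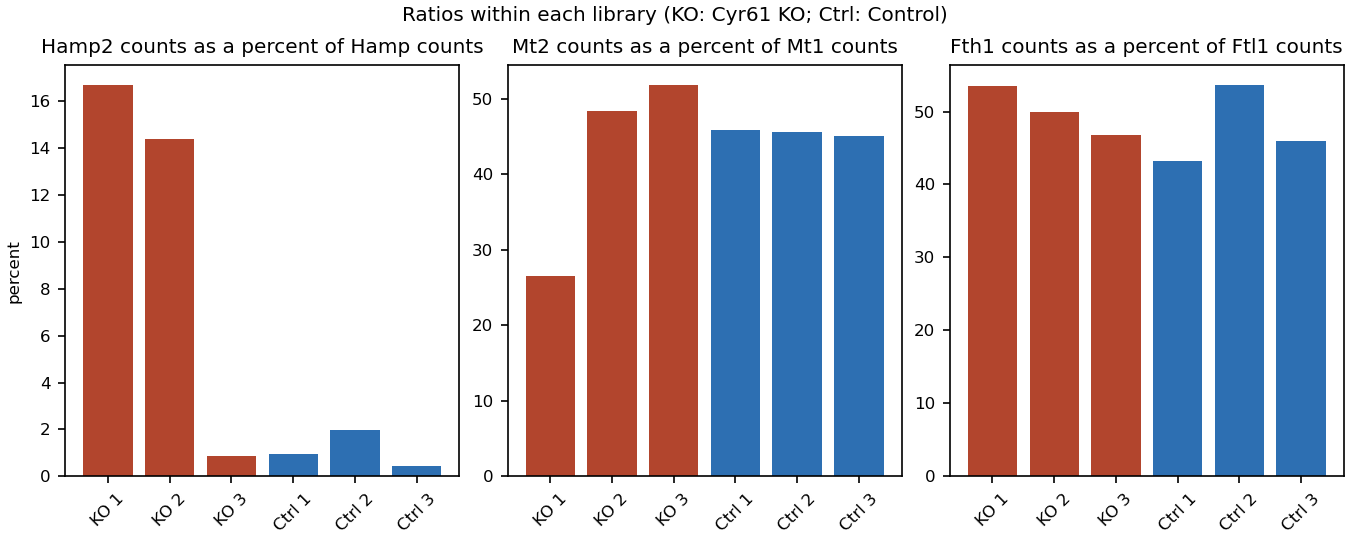
Counts of Hamp2, Mt2 and Fth1 as a percent of the counts of Hamp, Mt1 and Ftl1 (y axes, linear, from 0) in the 3 Cyr61 KO and 3 Control libraries. The Hamp2 share is 16.7% and 14.4% in Cyr61 KO replicates 1 and 2 and at most 1.95% in the other 4 libraries, whereas the Fth1 share is between 43.2% and 53.7% in all 6.

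The proximal promoters of Hamp and Hamp2 are shown because Hamp2 was high in 2 libraries in which Hamp was not, and because the hepcidin promoter holds known BMP and STAT3 response elements. The stretches are 130 bases long (RefSeq, GRCm38.p6, minus strand, written 5′ to 3′ in the direction of transcription). Counted from the RefSeq start used, they run from -130 to -1 in Hamp and from -127 to 3 in Hamp2. The Hamp2 stretch lies inside the span of the gene given above, whose 5′ end is farther upstream than the RefSeq start. Capitals mark the core GGCGCC of the BMP-responsive element and the STAT site TTCTTGGAA in Hamp, and the aligned letters in Hamp2.
Hamp, chr7:30944030-30944159: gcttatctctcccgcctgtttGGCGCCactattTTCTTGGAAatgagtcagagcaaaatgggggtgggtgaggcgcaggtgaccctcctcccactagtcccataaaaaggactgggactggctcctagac
Hamp2, chr7:30924179-30924308: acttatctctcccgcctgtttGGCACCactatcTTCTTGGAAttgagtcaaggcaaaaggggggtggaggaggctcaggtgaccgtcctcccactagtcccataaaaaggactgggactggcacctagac
The stretches were identical at 118 of 130 positions, or 90.8%. One of the 12 substitutions falls in the BMP core, G4A (Hamp base, position from 1 at the 5′ end of the core, Hamp2 base), so that GGCGCC was found in the Hamp window and in neither orientation of the Hamp2 window. GGCGCC was present in 11.9% of all 32851 windows, on either strand, and a window of Tfrc held it too, at -89. TTCTTGGAA, present in 0.417% of windows, was found in both genes. The letters alone do not show which factor acted.

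Over the 6 libraries the genes whose profile was most like that of Hamp2, by the smallest root mean square difference of centred log2 CPM, were the major urinary protein genes Mup12 and Mup1 and Thrsp, a lipogenic gene of hepatocytes, at 0.49, 0.68 and 0.85. Mup12 was at 12.5, 21.8 and 1.57 CPM in the Cyr61 KO livers, against 1.18, 2.17 and 1.67 CPM in the Control livers. Thrsp was at 417, 362 and 65.8 CPM in Cyr61 KO, against 56.6, 69.4 and 104 CPM in Control. Each was high in Cyr61 KO replicates 1 and 2, and replicate 3 was near the Control libraries. They were chosen for likeness to Hamp2 over these same libraries, so the shared pattern follows from the choice. Mup genes have many close copies, so their counts are uncertain. The gene most like Mt1 was Cyr61 at 0.27, followed by Mt2 at 0.28. Those most like Mt2 were the chemokine gene Cxcl14 at 0.27 and Mt1 at 0.28. Cyr61 is the gene removed, and its log2 fold change of -2.98 was near the -3.03 of Mt1. Profiles centred over all 6 libraries keep the group difference, so this likeness need not mean more than that difference. For Hmox1 the most alike genes were Tes and LOC100038947 at 0.11 each and Trim47 at 0.12.

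**Figure D4:**
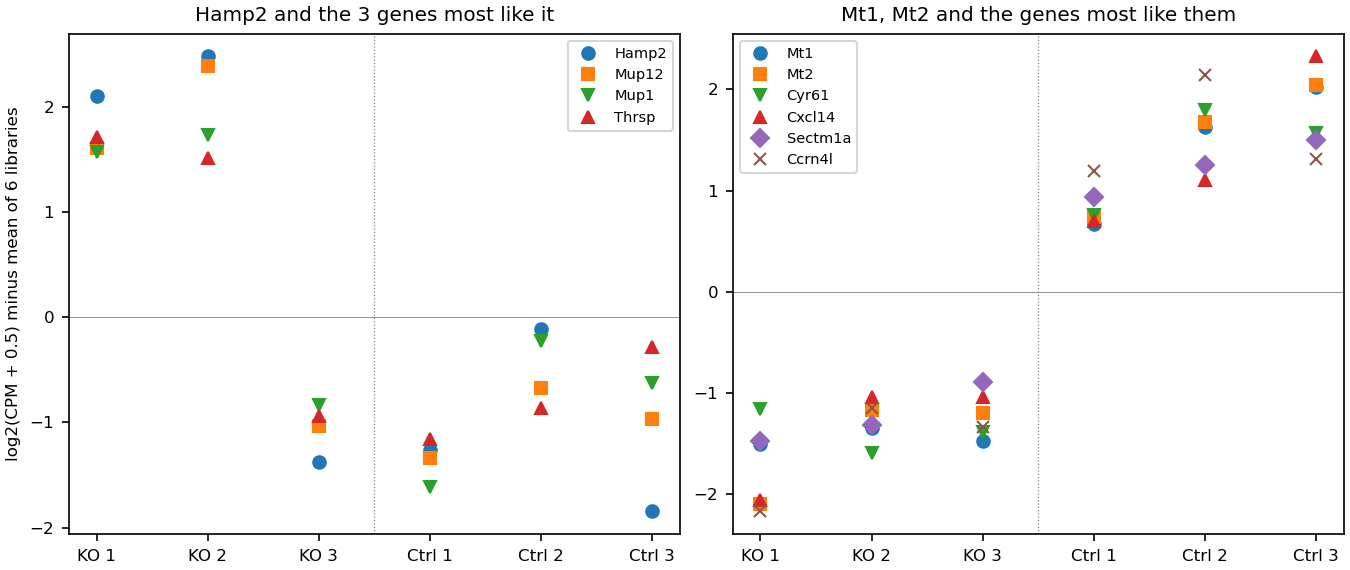
log2(CPM + 0.5) minus its mean over the 6 libraries (y axis) for Hamp2 with the 3 genes most like it, left, and for Mt1 and Mt2 with the genes most like them, right. The left panel shows Hamp2, Mup12, Mup1 and Thrsp above 0 in Cyr61 KO replicates 1 and 2 and below 0 in the other 4 libraries; the right panel shows all its genes below 0 in Cyr61 KO and above 0 in Control.

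Bmp6, the ligand that raises hepcidin transcription, was low throughout and did not pass. Its locus is chromosome 13, 38345107 to 38500302, plus strand. It was at 3.33, 4.51 and 4.77 CPM in the Cyr61 KO livers, against 2.47, 7.81 and 2.41 CPM in the Control livers. All 3 Cyr61 KO libraries lay between Control replicate 2 and the other 2 Controls. The log2 fold change was -0.0088 ± 0.49 (SE; edgeR adjusted p = 0.993). Without Control replicate 2 it was 0.80 and did not pass (0.164), and with limma voom and quality weights it was 0.78 and passed (0.0366).

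In mouse liver Bmp6 comes mainly from sinusoidal endothelial cells. Their 10 markers, none at 0, summed to 281, 346 and 429 CPM in Cyr61 KO replicates 1, 2 and 3, against 188, 327 and 199 CPM in Control replicates 1, 2 and 3, with 2 called higher and 0 lower. Control replicate 2 was the highest Control both for this sum and for Bmp6. The part of these cells in the Bmp6 values was not tested.

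Trf, the transferrin gene, was the most abundant of the 10 per length of transcript and did not pass. Its locus is chromosome 9, 103204001 to 103230444, minus strand. It was at 24677, 18127 and 17993 CPM in the Cyr61 KO livers, against 23109, 7547 and 27282 CPM in the Control livers. Control replicate 2, which also had the lowest Alb level, was the one library far below the rest. Annotated transcripts of other genes, mainly Gm20425, which overlaps the Trf locus, share 59.4% of its stretches of 50 bases, so its count is uncertain. The log2 fold change was 0.069 ± 0.54 (SE; edgeR adjusted p = 0.943), and it was -0.29 without Control replicate 2 (0.596).

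Tfrc, the transferrin receptor gene that cells short of iron and dividing cells raise, was at 14.6, 16.7 and 24.4 CPM in the Cyr61 KO livers, against 20.4, 22.2 and 13.7 CPM in the Control livers. Its locus is chromosome 16, 32608920 to 32632794, plus strand. The groups overlapped across most of their range. The log2 fold change of -0.014 (SE 0.27) did not pass (edgeR adjusted p = 0.977). Markers of cycling cells summed to 57.5 to 97.3 CPM in Cyr61 KO and 91.8 to 168 CPM in Control, with 0 of 10 called by edgeR. Of the 8 erythroid markers in the tables, the 4 globin genes Hba-a1, Hba-a2, Hbb-bs and Hbb-bt were listed at 0 in all libraries. Why they were at 0 was not tested, so these zeros do not tell how much erythroid RNA was present. The sum of 114 to 155 CPM in Cyr61 KO and 77.5 to 135 CPM in Control was almost all Alas2.

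The ferritin subunit genes did not pass either. Fth1, the heavy subunit with ferroxidase activity, is found on chromosome 19, 9980598 to 9985098, plus strand. It was at 2458, 1852 and 1675 CPM in the Cyr61 KO livers, against 2218, 1851 and 2434 CPM in the Control livers. The highest and the lowest of the 6 values were both Cyr61 KO libraries. The log2 fold change was -0.12 ± 0.32 (SE; edgeR adjusted p = 0.830), and 0.0035 without Cyr61 KO replicate 3.

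Ftl1, the light subunit, is found on chromosome 7, 45457944 to 45459884, minus strand. It was at 4592, 3706 and 3577 CPM in the Cyr61 KO livers, against 5133, 3449 and 5296 CPM in the Control livers. All Cyr61 KO libraries lay between Control replicate 2 and the other 2 Controls. The log2 fold change was -0.22 ± 0.35 (SE; edgeR adjusted p = 0.701). Annotated transcripts of 15 other genes, pseudogenes such as Ftl1-ps1 among them, share 50.9% of the stretches of 50 bases of Ftl1, and its count is uncertain to that extent. Fth1 counts were 46.8% to 53.5% of Ftl1 counts in Cyr61 KO and 43.2% to 53.7% in Control, a difference of the mean log2 ratio of 0.078 (exact two-sided permutation p = 0.5, adjusted over 3 ratios 0.75).

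Ferritin amounts are set largely after transcription, when iron regulatory proteins bind the iron-responsive element in the 5′ end of both messages and hold back translation, which counts of mRNA do not show. The element is printed because Fth1 and Ftl1 share the loop letters CAGTG and differ in the base after them. The pattern, a C, then 5 unspecified bases, then CAGTGN, was searched in the 5′ untranslated part of the principal transcripts (GENCODE M21) on the sense strand and matched once in each. Capitals mark the 6 loop bases in stretches of 28 bases.
Fth1: gtttcctgcttcaaCAGTGCttgaacgg
Ftl1: gtgtcttgcttcaaCAGTGTttgaacgg

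Per kilobase of annotated exon (FPKM, from TMM-normalised CPM and exon union length), the order from the top in Cyr61 KO was Trf at 6104 ± 1151, Ftl1 at 2954 ± 412, Hamp at 1412 ± 325, Fth1 at 575 ± 118, Hamp2 at 96.9 ± 77.4, Hmox1 at 12.8 ± 5.75, Mt1 at 9.88 ± 0.625, Mt2 at 8.92 ± 3.13, Tfrc at 3.01 ± 0.832 and Bmp6 at 1.08 ± 0.197 FPKM (SD, n = 3). In Control it was Trf at 5817 ± 3133, Ftl1 at 3452 ± 763, Hamp at 1966 ± 369, Fth1 at 625 ± 85.1, Mt1 at 80.9 ± 34.6, Mt2 at 77.9 ± 32.8, Hmox1 at 40.6 ± 4.31, Hamp2 at 14.5 ± 9.71, Tfrc at 3.04 ± 0.722 and Bmp6 at 1.09 ± 0.795 FPKM (SD, n = 3). On this scale the means of Mt1 and Mt2 lay within 1 SD of each other in Control, and in Cyr61 KO both lay within the SD of Hmox1. The order of these genes depended on the length used. Per kilobase of the principal transcript, Mt1 was at 22.4 ± 1.42 in Cyr61 KO and 184 ± 78.5 in Control, and Mt2 averaged 10.3 in Cyr61 KO and 89.6 in Control (SD, n = 3 each). Hmox1 was then at 14.3 ± 6.42 in Cyr61 KO and 45.3 ± 4.81 in Control, so that in Cyr61 KO Mt1 stood above both Hmox1 and Mt2 by more than 1 SD of either. Fth1 was then at 1335 ± 275 in Cyr61 KO and 1451 ± 198 in Control, close to Hamp in Cyr61 KO.

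Other genes of iron, heme and metal handling were taken from 6 lists with 90 genes, of which 80 were tested. In all, 2 were called higher and 1 lower, a share near the 3.44% of all genes, at a median log2 fold change of 0.21. The 23 tested genes of hepcidin control hold the BMP receptors, SMAD proteins, the iron sensors HFE and TFR2, hemojuvelin and the interleukin 6 pathway. Among them edgeR called 0 and DESeq2 called 1, where DESeq2 called 16.8% of all genes. Their median log2 fold change was 0.32, from -0.87 to 0.89, and the median was 0.24 without Control replicate 2. The edgeR p before adjustment was under 0.05 for 3 of the 23, against 27.4% of all genes, so both shares were below those over all genes. Tmprss6, the protease gene that restrains hepcidin by cleaving hemojuvelin, was at 763, 673 and 603 CPM in the Cyr61 KO livers, against 500, 180 and 516 CPM in the Control livers, without overlap (log2 fold change 0.77, edgeR adjusted p = 0.247). Tfr2 was at 569, 491 and 408 CPM in Cyr61 KO, against 341, 170 and 504 CPM in Control, with overlap (log2 fold change 0.53, edgeR adjusted p = 0.400). Without Control replicate 2, Tmprss6 was at 0.45 and Tfr2 at 0.24 on the log2 scale, and neither passed (edgeR adjusted p = 0.229 and 0.579).

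Of 15 genes of iron transport and reduction 1 was called, lower (median -0.01). It was Lcn2, which encodes lipocalin 2, a protein of the acute phase that binds bacterial siderophores. It was at 9.06, 6.88 and 34.0 CPM in the Cyr61 KO livers, against 209, 170 and 495 CPM in the Control livers. Every Cyr61 KO library was below every Control library, and Lcn2 fell by 4.13 on the log2 scale (SE 0.71, edgeR adjusted p = 0.0272). It did not pass without Cyr61 KO replicate 1 or 2 (0.0920 and 0.105) or with library totals (0.0558), and its value was -5.18 without Cyr61 KO replicate 3 and -3.49 without Control replicate 3. Neutrophils also express it, and their 6 markers in the tables summed to 1.99 to 2.97 CPM in Cyr61 KO and 9.52 to 74.1 CPM in Control, with 2 called lower, none at 0, and their part in the Lcn2 values not tested. The iron exporter gene Slc40a1, chosen after its values were seen, was at 133, 203 and 188 CPM in Cyr61 KO, against 198, 117 and 212 CPM in Control (log2 fold change -0.012, edgeR adjusted p = 0.983).

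Among 12 genes of heme scavenging, transport and breakdown 1 was called, higher (median -0.07). It was Cd163, the receptor by which macrophages clear haptoglobin with its bound hemoglobin, at 14.4, 7.59 and 6.42 CPM in the Cyr61 KO livers, against 0.730, 0.379 and 1.42 CPM in the Control livers. It rose by 3.48 on the log2 scale (SE 0.54) and without overlap (edgeR adjusted p = 0.0237), in the direction opposite to Hmox1. It did not pass without Cyr61 KO replicate 1 or 2, without Control replicate 1 or with library totals (0.0820, 0.0775, 0.0502 and 0.0514), and its value was 4.09 without Control replicate 3. The haptoglobin gene Hp and the hemopexin gene Hpx, chosen after their values were seen, stood at -1.48 and -1.33 on the log2 scale, short of the threshold (edgeR adjusted p = 0.0860 and 0.139), and both passed without Control replicate 2. Hp did not overlap between the groups, at 2173 to 3503 CPM in Cyr61 KO and 4691 to 11279 CPM in Control, and Hpx overlapped.

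In the list of zinc and copper handling 1 of 13 tested genes was called, higher (median 0.18). Slc30a10, a manganese exporter gene of the zinc transporter family, was at 69.5, 81.2 and 66.8 CPM in the Cyr61 KO livers, against 27.9, 11.6 and 27.6 CPM in the Control livers. It rose by 1.70 on the log2 scale (SE 0.33) and without overlap (edgeR adjusted p = 0.0366), in the direction opposite to Mt1 and Mt2. It did not pass without Cyr61 KO replicate 1 or 2, without Control replicate 1 or with library totals (0.0920, 0.138, 0.0555 and 0.0558). The other metallothionein genes of the list, Mt3 and Mt4, were not tested, with Mt4 listed at 0 in all libraries and Mt3 in 5 of 6.

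The remaining lists had no call by edgeR, and their counts below stand beside 16.8% of all genes called by DESeq2 and 27.4% with an edgeR p under 0.05 before adjustment. Of 8 genes of iron sensing and storage turnover DESeq2 called 1, and the edgeR p before adjustment was under 0.05 for 1 (median 0.17). Aco1, the gene of iron regulatory protein 1, was at 316, 301 and 274 CPM in the Cyr61 KO livers, against 232, 107 and 224 CPM in the Control livers, without overlap (log2 fold change 0.66, edgeR adjusted p = 0.218). Pcbp1, an iron chaperone gene, was at 0.18 on the log2 scale without passing, and at -0.099 with library totals. Of 9 heme synthesis genes DESeq2 called 1, and the edgeR p before adjustment was under 0.05 for 1 (median 0.24). Alas1, the rate-limiting enzyme of the pathway in liver, was at 81.9, 436 and 312 CPM in Cyr61 KO, against 154, 146 and 308 CPM in Control, so that the lowest and the highest library were both Cyr61 KO (log2 fold change 0.45, edgeR adjusted p = 0.620). Alad, the next enzyme, was at 0.04 and did not pass.

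**Figure D5:**
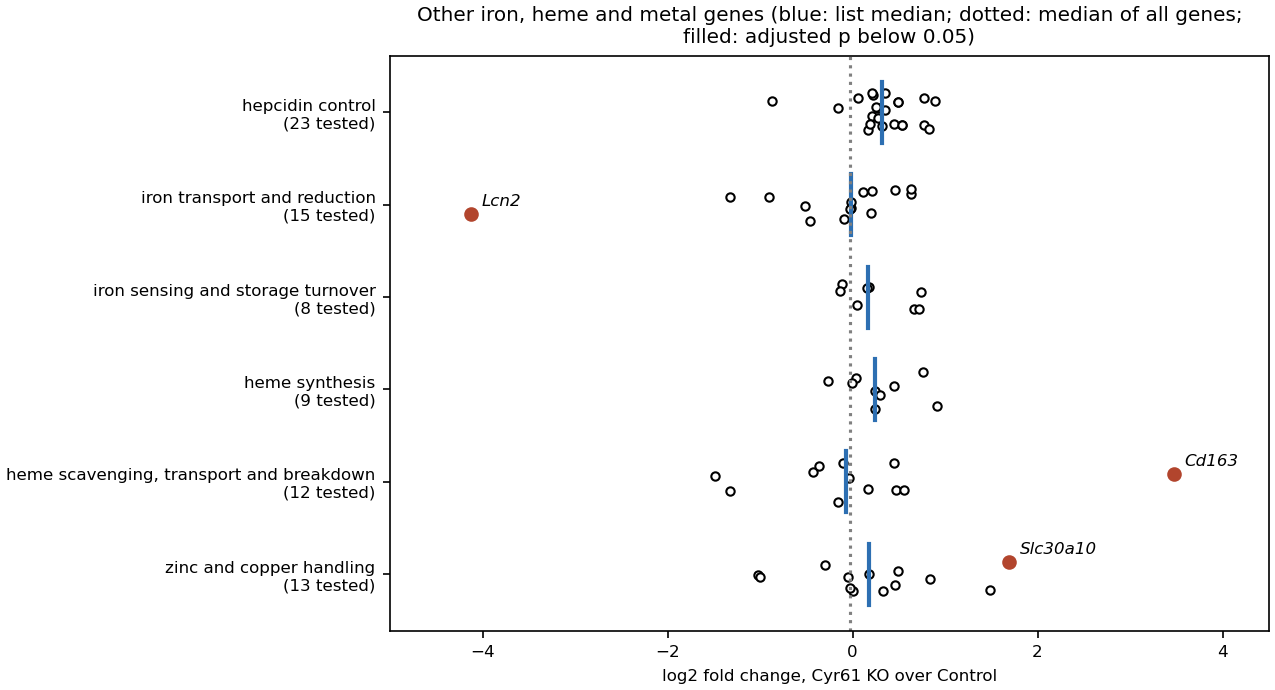
Log2 fold change of Cyr61 KO over Control (x axis) of the 80 tested genes of 6 lists other than the 10 genes, 1 point a gene, filled and named where the edgeR adjusted p was below 0.05. Lcn2 at -4.13, Cd163 at 3.48 and Slc30a10 at 1.70 passed, and the medians of the lists lie between -0.07 and 0.32 beside -0.03 for all genes.

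How many of the 10 genes passed depended on the libraries and the method, and so did the share of all genes. Without Cyr61 KO replicate 1 edgeR called 0 of the 10 (4 had an unadjusted p under 0.05, beside 25.5% of all genes), and 0.0502% of all genes. Without Cyr61 KO replicate 2 it called 1 (Mt1) and 0.172% of all genes, and without replicate 3 it called 4, with Hamp2 added, and 5.57%. Without Control replicates 1 and 2 the genes called were Mt1 and Mt2 each time, beside 1.26% and 2.15% of all genes, and without Control replicate 3 all 3 were called, beside 6.31%. DESeq2 called Mt1, Mt2 and Hmox1 beside 16.8% of all genes, and limma voom called those and Hamp2 and Bmp6 beside 33.1%. Scaling with DESeq2's size factors gave the same 3 genes beside 3.5%, the CPM filter gave them beside 3.6% and unstranded counts beside 3.41%. Library totals gave Mt1 and Mt2 beside 0.369%, while leaving out the low-count filter (5.28%) or adding a replicate block (4.67%) brought in Hamp2 as well.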

How the data were processed

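Whole liver RNA of 3 Cyr61 KO and 3 Control libraries was sequenced after a directional library preparation, per the labels' protocols. The authors deposited raw read counts per gene, 1 table a library, each with counts for either strand and without strand. Trimmomatic 0.38, STAR 2.6.1a and the builds hg38 and mm10 are listed, per the submitters' processing notes. For the annotation release and STAR's options, the sources used here give nothing. The reverse-strand column was used, since the opposite strand held 0.928% to 1.35% of stranded counts. A deposited table of the series equalled the unstranded counts in 100% of rows. Reads that were unmapped (2.21% to 3.83%), mapped to several places (3.74% to 19.4%), outside genes (4.27% to 25.7%) or in several genes (0.655% to 1.04%) entered no test or library size.

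From these counts, edgeR 4.0.16 (R 4.3.3) was run as a quasi-likelihood F test, two-sided, on 13563 genes left by filterByExpr (minimum count 10, minimum total 15), with TMM factors, a group term and Benjamini-Hochberg adjustment, called below 0.05. Standard errors (SE) were obtained by dividing each fold change's size, in log2, by the root of its F statistic. Alternatives were DESeq2 1.42.0, limma 3.58.1 voom with quality weights, other scalings and filters, a replicate block, unstranded counts and leaving out each library. Lengths per principal transcript were added after the data were seen. The fits were tried on counts simulated with the means and spread estimated from these libraries. The simulation held no outlying library, so it does not show how the fits behave with one such as Control replicate 2. Every pair of libraries differed by more than sampling noise (chi-square per degree of freedom at least 57.8).

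The 10 genes and all lists were chosen with earlier results of these data known. Named beyond the 10 are Cyr61, the called genes of each list (at most 4 by p, or the 2 highest by CPM where none was called) and the 3 genes of mean CPM at least 1 most like a member, of which those of Hamp2, Mt1, Mt2 and Hmox1 are printed. Mtf1, as the factor named beside the promoter letters, and Mt3, Mt4, Slc40a1, Hp and Hpx are named outside this rule, chosen after their values were seen. So are Malat1 and single marker genes such as Alb, Dmbt1, Spp1, Krt19, Alas2, C6, Timd4 and Cd5l. GENCODE M21 (GRCm38, which mm10 names too) gave positions and exon lengths.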

Additional observations from a re-analysis of the deposited data

How the results depend on the processing

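The direction of Hamp, Hamp2, Hmox1, Ftl1, Mt1, Mt2, Cyr61, Tmprss6, Tfr2, Aco1, Lcn2, Cd163 and Slc30a10 was the same in all 14 alternatives. The number of all genes called was 2273 with DESeq2, 4483 with limma voom and quality weights, 944 without a low-count filter (278 higher and 666 lower), 50 with library totals (27 higher and 23 lower, against 145 and 322 with TMM, where the median of all genes moved from -0.03 to -0.30) and 7 to 878 with 1 library left out. Of the 10 genes, 5 were called with voom, where Hamp2 and Bmp6 were added, and 0 to 4 with 1 library left out. Of the listed genes 11 were called with DESeq2, 22 with voom, 0 with library totals (14 of 80 had an unadjusted p under 0.05, beside 27.2% of all genes) and 0 to 5 with 1 library left out. Values near 0 changed sign: Tfrc was 0.028 without the filter, Trf was -0.32 with voom and -0.11 with library totals, Bmp6 was 0.0028 with DESeq2, 0.0033 with DESeq2's size factors, 0.051 without the filter and 0.78 with voom, Pcbp1 was -0.099 with library totals, and Alad was -0.079 with voom, -0.24 with library totals and -7.2e-04 under the CPM filter (1 or more in 3 libraries). With 1 library left out Fth1 ran from -0.29 to 0.0035, Tfrc from -0.25 to 0.15, Trf from -0.29 to 0.41, Bmp6 from -0.27 to 0.80, Alas1 from -0.030 to 0.89, Alad from -0.24 to 0.26 and the log2 ratio of Mt2 to Mt1 from -0.34 to 0.14. The causes were not tested. The smallest p of an exact test of 3 against 3 libraries is 0.1, which limits the ratios.

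The replicate numbers share no stated origin, and same-numbered libraries did not deviate together (correlations of -0.08, -0.23 and -0.45 across genes). With the replicate block 633 genes were called, 4 of the 10 (Hamp2 was added, at 2.26 with an edgeR adjusted p of 0.0131) and 5 of the listed genes, and Bmp6 was at 0.21. Sign flips of the same-numbered pairs left the differences of the ratios as they were and cannot give an exact p below 0.25.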
